A study of Mus musculus with 6 samples.

Results

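The 34 genes described here are active in B lymphocytes and their precursors, and they were measured in RNA of mouse femur fractions that had been enriched for osteocytes, which live inside the mineralised bone. They are a list of names, drawn up with earlier results of these data known, among the 55421 gene rows of the count table: 33 carry their name in the deposited table and Vpreb1, listed there as Vpreb1a, was matched by its gene ID. The 6 libraries come from C57BL/6 mice aged 12 weeks with the genotype WT, 3 after phlebotomy (removal of blood) and 3 from controls; how much blood was taken and when is not given in the sources used here. The letter P in a column name was read as phlebotomy and N, by elimination, as control, and libraries are called by column number (1, 2 and 4 in each group). The labels do not say that libraries came from separate mice, so p-values reflect only how far these libraries spread, which may be technical.

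B cells form in the marrow. Pro-B and pre-B cells cut and rejoin their immunoglobulin genes with the RAG recombinase and carry a provisional receptor, the pre-B cell receptor, whose surrogate light chain is made from Vpreb1 and Igll1. The transcription factors EBF1 and PAX5 set and keep the B-cell identity, and the signalling chains CD79A and CD79B serve both the provisional and the final receptor. Cells that leave the marrow or return to it as mature B cells carry surface receptors such as CD22, CD23 (Fcer2a), CD21 (Cr2) and the BAFF receptor (Tnfrsf13c). By these roles the members were placed in 3 stages: 8 pro-B and pre-B genes, 14 genes used across the lineage and 12 genes of mature B cells.

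The letters before a RefSeq transcription start of 4 members are shown as a description: Vpreb1 and Igll1, neighbours that make the surrogate light chain, Cd79a of the receptor itself, and Cd22, the member with the most negative fold change. Each is the 250 bases before a RefSeq start (GRCm38.p6), and capitals mark matches on either strand to CCCNNGGG (the core bound by EBF1) or CAGGTG (the E-box bound by E2A), which do not overlap each other here. By the GENCODE M21 spans, the Vpreb1 and Cd22 windows lie inside the genes, which reach to 16870843 and 30880342. The Cd79a window includes that gene's annotated start, 24897381.
Vpreb1 chr16:16869256-16869505 (minus strand): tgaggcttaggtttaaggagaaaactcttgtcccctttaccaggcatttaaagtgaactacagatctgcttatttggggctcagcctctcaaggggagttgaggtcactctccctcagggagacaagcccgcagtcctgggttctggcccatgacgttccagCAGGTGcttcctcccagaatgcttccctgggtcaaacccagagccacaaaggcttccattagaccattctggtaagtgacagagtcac
Igll1 chr16:16863986-16864235 (minus strand): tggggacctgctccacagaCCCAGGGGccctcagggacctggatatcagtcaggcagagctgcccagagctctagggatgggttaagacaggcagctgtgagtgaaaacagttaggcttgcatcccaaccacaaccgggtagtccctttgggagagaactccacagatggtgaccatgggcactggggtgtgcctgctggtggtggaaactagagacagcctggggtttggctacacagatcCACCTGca
Cd79a chr7:24897247-24897496 (plus strand): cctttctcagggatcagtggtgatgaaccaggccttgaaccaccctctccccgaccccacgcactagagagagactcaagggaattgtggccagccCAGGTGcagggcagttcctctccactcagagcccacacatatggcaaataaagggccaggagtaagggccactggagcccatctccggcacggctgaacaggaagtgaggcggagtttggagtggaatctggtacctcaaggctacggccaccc
Cd22 chr7:30879029-30879278 (minus strand): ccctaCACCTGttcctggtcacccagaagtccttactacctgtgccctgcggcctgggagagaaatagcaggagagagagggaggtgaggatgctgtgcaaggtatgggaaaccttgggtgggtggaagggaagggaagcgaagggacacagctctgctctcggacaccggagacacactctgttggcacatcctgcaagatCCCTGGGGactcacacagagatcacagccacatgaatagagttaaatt
RefSeq gave 32 such windows for 28 of the 34 members. CAGGTG was found in 13 of the 32 windows, which is 40.6%, and in 17.2% of all 32851 promoter windows of the table. CCCNNGGG was found in 5 windows of members (15.6%) and in 11.8% of all windows. The octamer ATTTGCAT, read by OCT factors with their partner Pou2af1, was found in the windows of Blnk and Vpreb3 (6.25%, and 1.60% of all windows), and GAGGAAGT, the ETS site of SPIB and PU.1, in those of Cd37 and Cd72 (6.25%, and 2.44% of all windows). These matches describe the letters alone.

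Libraries held 11219243 to 19015588 gene counts, and every member had at least 26 counts in every library. All 34 members passed the filter on low counts and were among the 18838 genes of the edgeR quasi-likelihood test. Levels are TMM-scaled CPM, the count relative to a library total adjusted for composition. Phlebotomy 2 lay at -7.80 on the first principal component (41.8% of variance), nearer to the controls (-51.4 to -16.6) than were phlebotomy 1 and 4 (54.9 and 40.2). The 12 osteocyte markers summed to 14001 to 25319 CPM in phlebotomy libraries and to 23320 to 49613 CPM in controls, so bone cell RNA was present in each. Their median log2 fold change was -0.70. Among erythroid markers 9 of 11 tested had values above 0 (median 0.28), as did 9 of 12 neutrophil markers (median 0.28). Without control 1, where both lists were lowest, these medians were -0.014 and 0.0062. Whether these shifts in marker RNA reflect cell makeup, and their part in the results below, was not tested. In RNA of a whole tissue fraction, fewer B cells and less RNA per B cell cannot be told apart.

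None of the 34 members passed the edgeR test over all 18838 genes (Benjamini-Hochberg adjusted p under 0.05), where 0.0159% of genes passed. At an unadjusted p under 0.05 there were 8 members lower and 2 higher after phlebotomy, beside 9.42% and 7.01% of all genes. DESeq2 called 3 members lower (Cd22, Fcmr and Foxo1) and none higher, where it called 2.47% of 12576 genes lower and 0.533% higher, 3.01% in all. Those 12576 are the genes that DESeq2 gave an adjusted p, and Rag2 and Cr2 were given none. limma-voom called none of the members and 0 of all genes. Log2 fold changes were below 0 for 24 of 34 members, against 50.2% of all genes, and above 0 for 10 members, against 49.8%. The median over members was -0.33, and over all genes tested it was -0.0028.

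By stage, the median log2 fold change was -0.21 for the 8 pro-B and pre-B members, -0.30 for the 14 lineage-wide members and -0.39 for the 12 mature B members. Phlebotomy libraries lay below all controls for 0, 4 and 4 members in that order and above all controls for 1 mature B member, where 11.2% of all genes lay below and 10.1% above, 21.3% in all. With the authors' scaling 5 mature B members lay below all controls, and the share of all genes under that scaling was not computed. At an unadjusted p under 0.05, 0 of 8, 5 of 14 and 3 of 12 members lay lower in the same order, beside 9.42% of all genes, and 0, 1 and 1 lay higher, beside 7.01%.

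**Figure D1:**
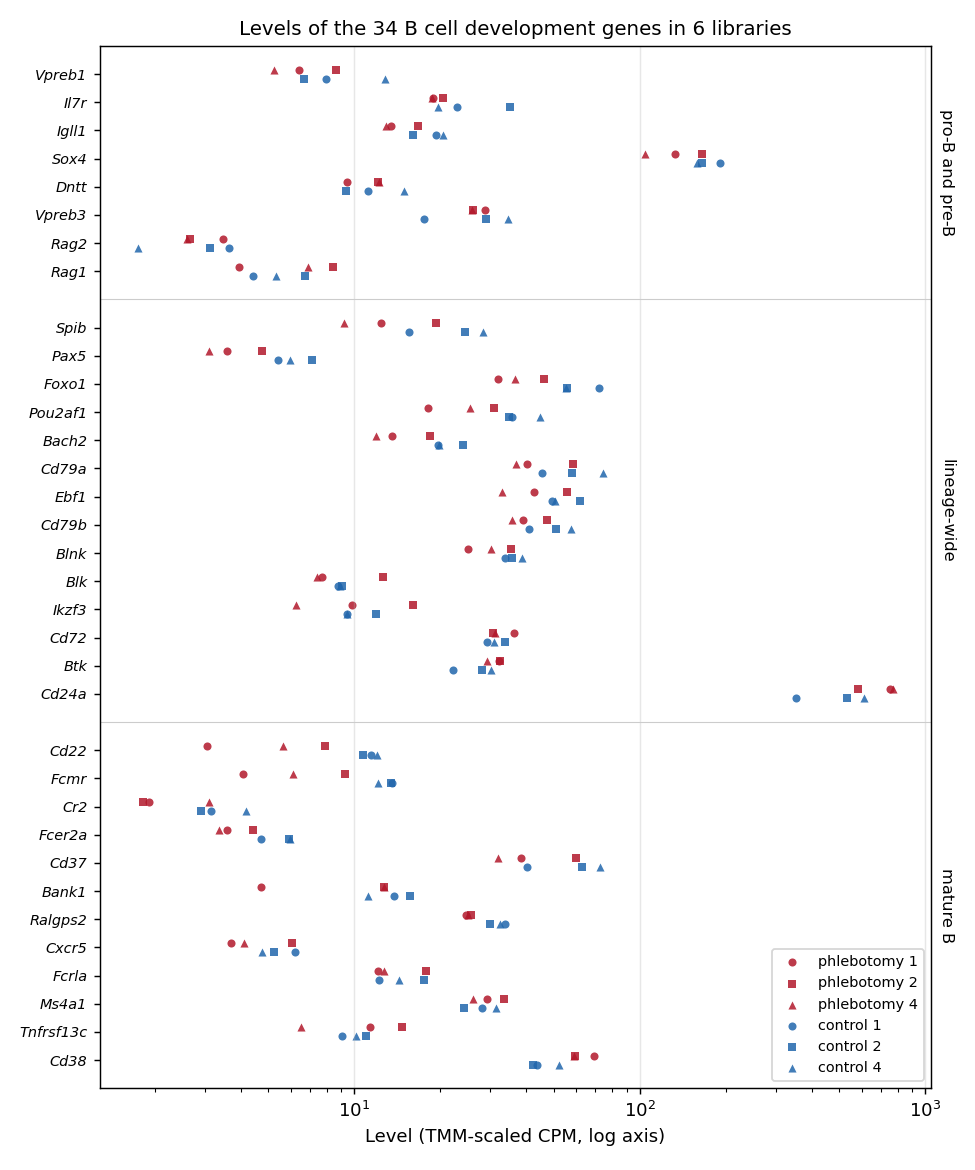
Each row is a member and each point a library, with the level in TMM-scaled CPM on a log axis; red points are phlebotomy and blue points control, and the shape gives the library number. In the rows of Cd22, Fcmr, Ralgps2, Fcer2a, Pax5, Foxo1, Pou2af1 and Bach2 all red points lie left of all blue points, and in that of Cd38 all lie right.

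The surrogate light chain genes lay lower on average after phlebotomy but overlapped between groups. Igll1, the lambda-5 chain (ENSMUSG00000075370, chromosome 16, 16860671 to 16863985), had 13.5, 16.7 and 12.9 CPM in phlebotomy 1, 2 and 4, against 19.3, 16.1 and 20.4 CPM in control 1, 2 and 4. Vpreb1, its partner chain, whose gene lies 4417 bases away, had 6.41, 8.66 and 5.25 CPM in phlebotomy libraries, against 7.99, 6.67 and 12.8 CPM in controls. The log2 fold changes were -0.37 ± 0.20 and -0.44 ± 0.28 (SE, edgeR adjusted p 0.357 and 0.451). For each of these genes phlebotomy 2 exceeded control 2, the lowest control. Vpreb1 has a near-identical copy, Vpreb1b, at 0.758 to 2.41 CPM, with which it may share reads, and its annotated span overlaps Top3b on the other strand.

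The recombinase genes overlapped between groups. Rag1, the catalytic subunit, had 3.95, 8.40 and 6.89 CPM in phlebotomy 1, 2 and 4, against 4.44, 6.72 and 5.31 CPM in control 1, 2 and 4. Rag2, its cofactor, 5752 bases away on chromosome 2, had 3.47, 2.67 and 2.59 CPM in phlebotomy libraries, against 3.65, 3.11 and 1.75 CPM in controls. The groups overlapped for both, with log2 fold changes of 0.21 ± 0.29 and 0.051 ± 0.33 (SE, edgeR adjusted p 0.742 and 0.953), and both signs turned under some alternatives. Rag2 held 26 to 58 counts a library, so counting error alone is wide, and an overlapping gene, B230118H07Rik, with 1096 counts in all, spans both. Dntt, the terminal transferase that adds bases at the joints, had 9.46, 12.1 and 12.3 CPM in phlebotomy libraries and 11.1, 9.34 and 14.9 CPM in controls (log2 fold change -0.065 ± 0.23 SE, edgeR adjusted p 0.908).

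Vpreb3, which is made in B-cell precursors and binds nascent receptor chains, had 28.8, 26.0 and 25.9 CPM in phlebotomy 1, 2 and 4, against 17.6, 28.9 and 34.5 CPM in control 1, 2 and 4. Its controls spanned more than its phlebotomy libraries, and the log2 fold change was -0.011 ± 0.22 (SE, edgeR adjusted p 0.985). Il7r, a chain of the receptor for interleukin 7, the growth factor of mouse pro-B cells, had 18.9, 20.5 and 18.7 CPM in phlebotomy libraries and 23.0, 35.2 and 19.6 CPM in controls. Sox4, a transcription factor needed for pro-B cells and also made in bone-forming cells, had 133, 165 and 104 CPM in phlebotomy libraries and 191, 166 and 158 CPM in controls. Their log2 fold changes were -0.42 ± 0.22 and -0.36 ± 0.19 (SE, edgeR adjusted p 0.349 and 0.354). Without Il7r and Sox4, which other cells of marrow or bone also make, the median of the 6 remaining pro-B and pre-B members was -0.038.

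Among the transcription factors, 4 lay lower in all phlebotomy libraries than in any control, as did 11.2% of all genes. Foxo1, which drives Rag and Il7r transcription in mouse B-cell precursors and is made in many other cells, had 31.9, 46.3 and 36.7 CPM in phlebotomy 1, 2 and 4, against 72.1, 55.6 and 55.0 CPM in control 1, 2 and 4. Pou2af1, the OCA-B coactivator of immunoglobulin promoters, had 18.1, 30.9 and 25.4 CPM in phlebotomy libraries, against 35.6, 34.97 and 44.8 CPM in controls. Pax5 had 3.59, 4.76 and 3.10 CPM in phlebotomy libraries, against 5.42, 7.10 and 5.98 CPM in controls. Phlebotomy 2 was the highest of its group for each of these. Bach2, a repressor that holds B cells back from the plasma cell fate, had 13.5, 18.4 and 11.9 CPM in phlebotomy libraries, against 19.7, 24.0 and 19.8 CPM in controls.

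The log2 fold changes were -0.67 ± 0.19 for Foxo1, -0.63 ± 0.21 for Pou2af1, -0.70 ± 0.26 for Pax5 and -0.54 ± 0.21 for Bach2 (SE, edgeR adjusted p 0.169, 0.202, 0.230 and 0.241). DESeq2 gave Foxo1 an adjusted p of 0.0440, and over 14 alternatives its adjusted p ran from 0.0343 to 0.613. Spib, an ETS factor of B cells and plasmacytoid dendritic cells, had 12.4, 19.3 and 9.23 CPM in phlebotomy 1, 2 and 4, against 15.6, 24.4 and 28.3 CPM in control 1, 2 and 4. Its groups overlapped through phlebotomy 2 alone, which exceeded control 1 (log2 fold change -0.75 ± 0.27 SE, edgeR adjusted p 0.225). Ebf1, which opens the B-cell programme, had 42.6, 55.5 and 32.9 CPM in phlebotomy libraries and 49.1, 62.0 and 50.5 CPM in controls (log2 fold change -0.30 ± 0.20 SE, edgeR adjusted p 0.460). Ikzf3, the factor Aiolos, had 9.82, 16.03 and 6.26 CPM in phlebotomy libraries, against 9.47, 11.9 and 9.41 CPM in controls, with phlebotomy 2 above all controls and phlebotomy 4 below them.

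The receptor's signalling chains overlapped between groups. Cd79a had 40.2, 58.2 and 36.9 CPM in phlebotomy 1, 2 and 4, against 45.6, 58.0 and 74.5 CPM in control 1, 2 and 4, and Cd79b had 38.9, 47.2 and 35.6 CPM in phlebotomy libraries, against 41.0, 50.9 and 57.6 CPM in controls. Phlebotomy 1 and 4 lay below all controls for each, and phlebotomy 2 lay among them. The log2 fold changes were -0.40 ± 0.22 and -0.30 ± 0.19 (SE, edgeR adjusted p 0.374 and 0.429). The adaptor Blnk, 34739 bases from Dntt on chromosome 19, had a log2 fold change of -0.25, and the kinases Blk and Btk had 0.046 and 0.22 (edgeR adjusted p 0.498, 0.941 and 0.555). Cd72, a co-receptor, had 36.4, 30.8 and 31.2 CPM in phlebotomy libraries and 29.1, 33.8 and 30.9 CPM in controls, a log2 fold change of 0.067 ± 0.17 (SE, edgeR adjusted p 0.870) that was -0.020 with the authors' scaling.

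Cd24a, a surface protein of B-cell precursors that red cell precursors and neutrophils also carry, ran the other way. It had 752, 583 and 773 CPM in phlebotomy 1, 2 and 4, against 353, 531 and 610 CPM in control 1, 2 and 4. Phlebotomy 2 lay below control 4, and the log2 fold change was 0.50 ± 0.22 (SE, edgeR adjusted p 0.278). The erythroid markers were lowest in control 1, as Cd24a was, at -0.81 on the centred log2 scale, against -0.039 to 0.24 in the other 5 libraries. Neutrophil markers were likewise lowest there, at -0.80, against -0.065 to 0.39 in the others, and the part of either in the Cd24a values was not tested.

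**Figure D2:**
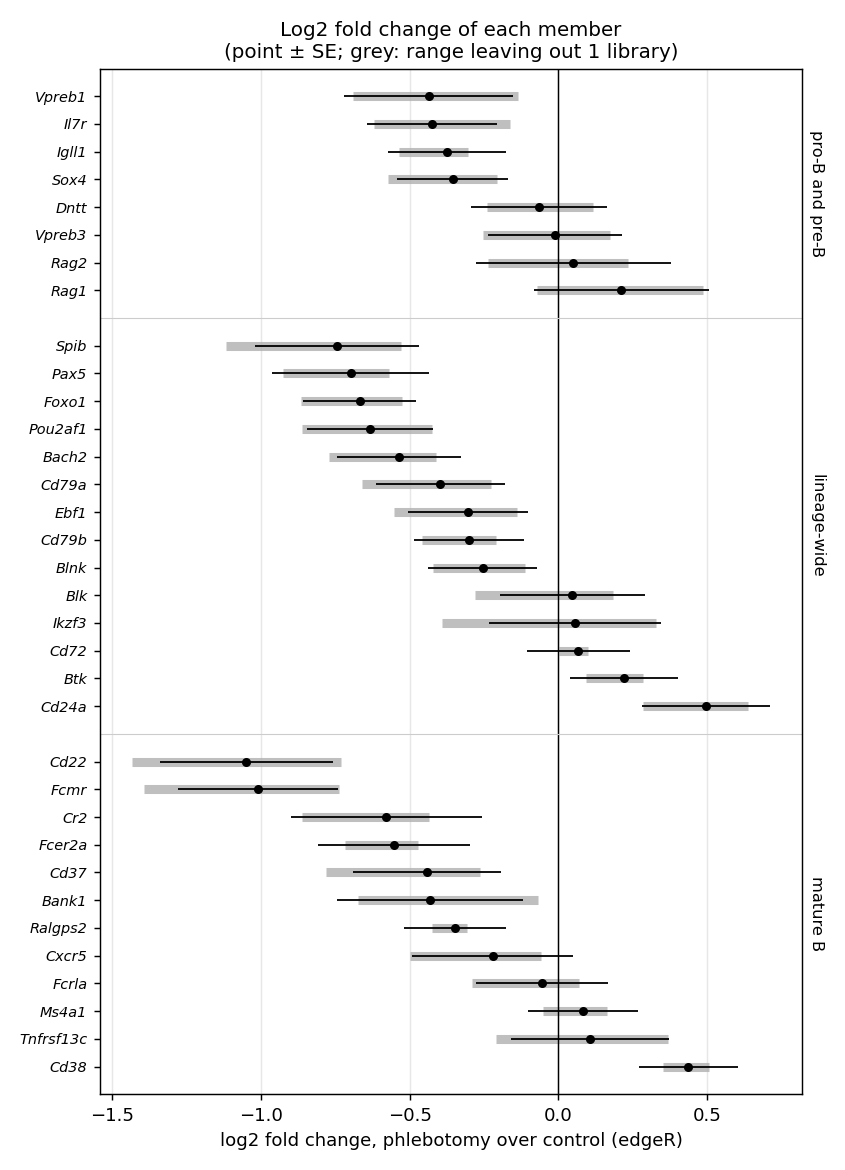
Points are edgeR log2 fold changes of phlebotomy over control, thin bars their SE, and grey bars the range when each of the 6 libraries is left out in turn. Cd22 and Fcmr lie furthest left, at -1.05 and -1.01, and Cd24a and Cd38 furthest right, at 0.50 and 0.44.

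Of the mature B genes, Cd22 and Fcmr had the most negative fold changes of all members. Cd22 (ENSMUSG00000030577, chromosome 7, 30865402 to 30880342), which encodes a sialic-acid-binding receptor that dampens B cell receptor signals, had 3.05, 7.88 and 5.63 CPM in phlebotomy 1, 2 and 4, against 11.4, 10.8 and 12.0 CPM in control 1, 2 and 4. These rest on 51, 121 and 89 counts in phlebotomy libraries and on 116, 197 and 179 counts in controls. Controls lay within a narrow range and phlebotomy libraries spread widely below it. The log2 fold change was -1.05 ± 0.29 (SE). The adjusted p was 0.167 in edgeR and 0.0387 in DESeq2, in a range of 0.00948 to 0.613 over 14 alternatives.

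Fcmr (ENSMUSG00000042474, chromosome 1, 130865669 to 130880791), the receptor for the constant part of IgM, had 4.07, 9.25 and 6.13 CPM in phlebotomy 1, 2 and 4, against 13.6, 13.4 and 12.1 CPM in control 1, 2 and 4. As for Cd22, phlebotomy 1 was lowest, phlebotomy 4 next and phlebotomy 2 nearest to the controls. The log2 fold change was -1.01 ± 0.27 (SE). The adjusted p was 0.160 in edgeR and 0.0325 in DESeq2, in a range of 0.0101 to 0.613 over 14 alternatives. The log2 fold change was -1.43 for Cd22 and -1.39 for Fcmr without phlebotomy 2, and -0.73 and -0.74 without phlebotomy 1.

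A pair of other mature B genes also separated the groups, with less negative fold changes than Cd22 and Fcmr. Fcer2a, the low-affinity IgE receptor CD23 of follicular B cells, had 3.59, 4.43 and 3.35 CPM in phlebotomy 1, 2 and 4, against 4.73, 5.90 and 5.98 CPM in control 1, 2 and 4. Ralgps2, which encodes an exchange factor for Ral proteins, had 24.6, 25.7 and 25.0 CPM in phlebotomy libraries, against 33.6, 29.8 and 32.5 CPM in controls. All phlebotomy libraries lay below all controls for each gene, as for 11.2% of all genes. Log2 fold changes were -0.55 ± 0.26 and -0.35 ± 0.17 (SE, edgeR adjusted p 0.302 and 0.325). Cr2, the complement receptor CD21, had 1.92, 1.82 and 3.10 CPM in phlebotomy libraries and 3.16, 2.90 and 4.17 CPM in controls, on 28 to 62 counts a library, and overlapped through phlebotomy 4 alone (log2 fold change -0.58 ± 0.32 SE, edgeR adjusted p 0.381).

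Ms4a1, which encodes CD20, a marker from pre-B to mature cells, did not follow Cd22 and Fcmr. It had 29.1, 33.4 and 26.0 CPM in phlebotomy 1, 2 and 4, against 28.0, 24.2 and 31.3 CPM in control 1, 2 and 4, a log2 fold change of 0.083 ± 0.18 (SE, edgeR adjusted p 0.848) whose sign turned with the length and GC trend removed. Tnfrsf13c had 11.4, 14.7 and 6.51 CPM in phlebotomy libraries, on both sides of the controls at 9.07, 10.98 and 10.1 CPM. Bank1, a scaffold of receptor signalling, had 4.73, 12.7 and 12.8 CPM in phlebotomy libraries and 13.8, 15.6 and 11.2 CPM in controls, so that phlebotomy 1 alone stood apart (log2 fold change -0.43 ± 0.31 SE, and -0.068 without that library). Cd37, a tetraspanin of B cells and other leukocytes, Cxcr5, the receptor that guides B cells into follicles, and Fcrla, an intracellular Fc-receptor-like protein, had log2 fold changes of -0.44, -0.22 and -0.056 (edgeR adjusted p 0.392, 0.704 and 0.920). Fcrla overlaps the pseudogene Gm2962, which held 1670 counts against 1338 for Fcrla, on the same strand, and how the counting divided reads between them is not given in the sources used here.

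Cd38 was the member above all controls in every phlebotomy library, as 10.1% of all genes were. This surface enzyme that consumes NAD is made in B cells and in other cells of marrow. It had 69.3, 59.2 and 59.0 CPM in phlebotomy 1, 2 and 4, against 43.8, 42.5 and 52.1 CPM in control 1, 2 and 4. The log2 fold change was 0.44 ± 0.17 (SE, edgeR adjusted p 0.235) and ran from 0.35 to 0.51 with a library left out.

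The stages were then set against each other library by library. On the centred log2 scale (each gene minus its mean over the 6 libraries), pro-B and pre-B members lay at -0.16, 0.093 and -0.17 in phlebotomy 1, 2 and 4, against 0.0096, 0.099 and 0.13 in control 1, 2 and 4. Mature B members lay at -0.39, 0.11 and -0.23 in phlebotomy libraries, against 0.10, 0.19 and 0.23 in controls. Lineage-wide members lay at -0.22, 0.15 and -0.32 in phlebotomy libraries, against -0.037, 0.21 and 0.22 in controls. In each stage phlebotomy 2 was the highest phlebotomy library, and it lay inside the control range.

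The difference of these levels, pro-B and pre-B minus mature B, was 0.24, -0.018 and 0.060 in phlebotomy 1, 2 and 4, against -0.092, -0.087 and -0.099 in control 1, 2 and 4. The groups did not overlap in this difference, and the members were chosen with results of these data known, so it carries no test. The difference of the stage medians of log2 fold change was 0.18. It was -0.0018 without phlebotomy 1, where the mature B median was -0.19. It was 0.35 without 6 members set aside because other cells also make them. Its size thus rested on phlebotomy 1 and on which genes stand for the early stage.

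**Figure D3:**
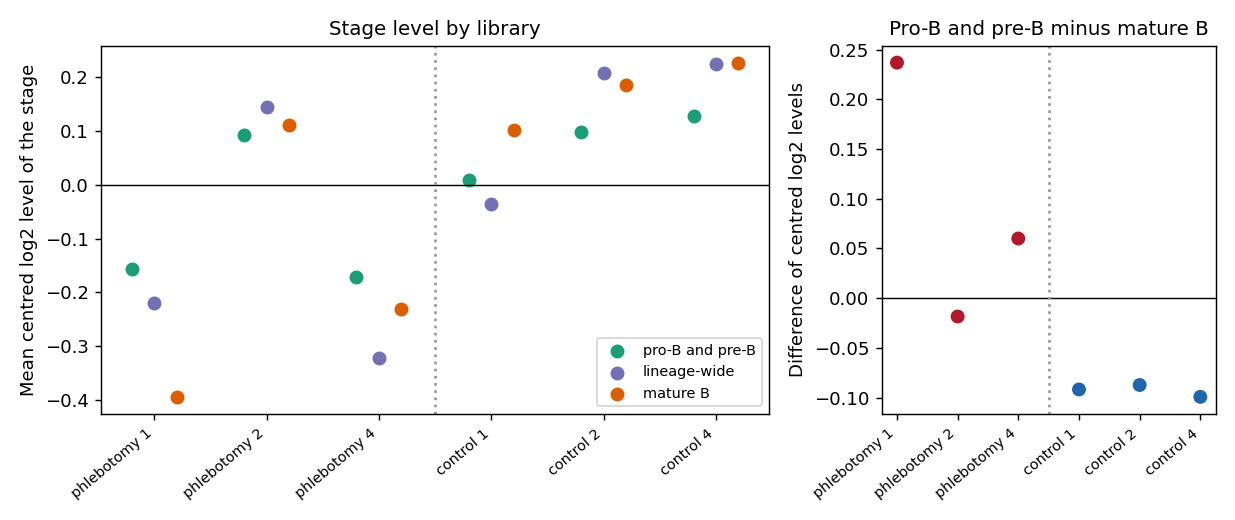
The left panel gives the mean centred log2 level of each stage in each library, coloured by stage, and the right panel gives pro-B and pre-B minus mature B, with phlebotomy in red and control in blue. In the left panel phlebotomy 1 and 4 lie below 0 for all stages and phlebotomy 2 above 0; the right panel runs from -0.099 to 0.24.

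Taken library by library, phlebotomy 1 lay below all controls for 24 members and phlebotomy 4 for 22, where 33.3% and 31.6% of all genes did. Phlebotomy 2 did so for 9 members, beside 25.4% of all genes, and was within the control range for 17 of 34, near the 53.3% of all genes. It was the highest of the phlebotomy libraries for 26 of 34 members, where it was so for 36.2% of all genes. Without phlebotomy 2, edgeR called 5 members lower (Cd22, Fcmr, Foxo1, Pou2af1 and Spib) and none higher, where it called 2.99% of 20300 genes lower and 1.75% higher, 4.74% in all. Without phlebotomy 1 or any other library it called none of the members. Medians of the stages without phlebotomy 2 were -0.33, -0.51 and -0.49 for pro-B and pre-B, lineage-wide and mature B members.

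**Figure D4:**
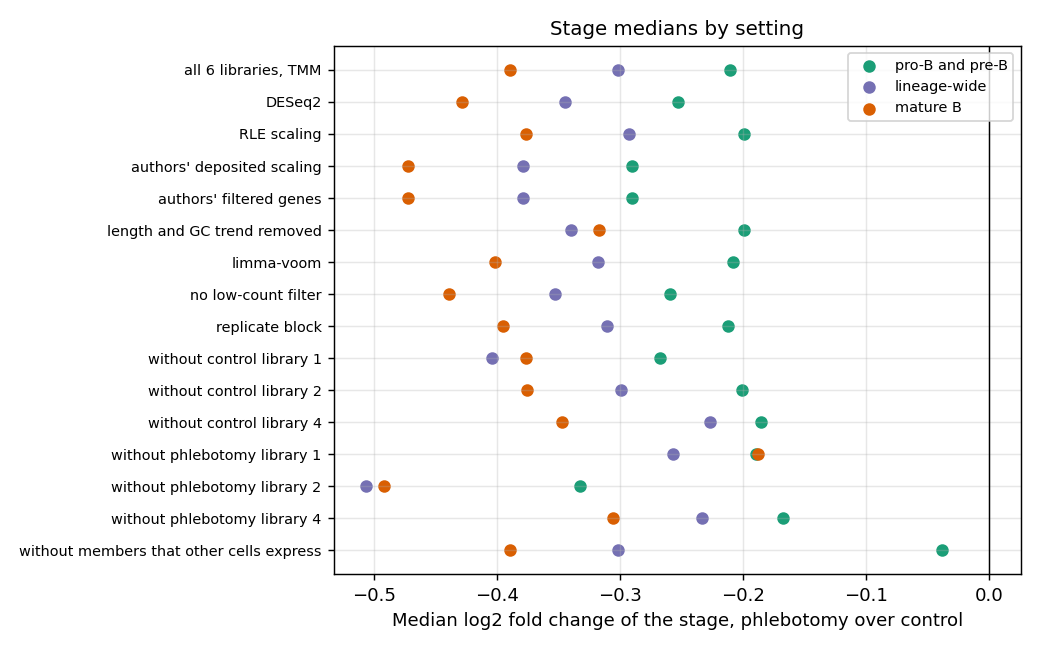
Points are the median log2 fold change of each stage, phlebotomy over control, with all 6 libraries and under each alternative. All medians are below 0, from -0.51 to -0.038, and mature B members lie left of pro-B and pre-B members in every row except that without phlebotomy 1, where they coincide.

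Levels of different genes were compared per kilobase of the longest annotated transcript. Cd24a stood highest, at 387 ± 57.1 CPM per kb in phlebotomy libraries and 274 ± 72.5 CPM per kb in controls (SD, n = 3). Cd79a, Vpreb3, Sox4 and Cd79b followed, at 31.0 ± 7.88, 36.9 ± 2.29, 28.0 ± 6.35 and 28.3 ± 4.17 CPM per kb in phlebotomy libraries and 40.7 ± 9.95, 37.0 ± 11.9, 35.8 ± 3.59 and 34.8 ± 5.83 CPM per kb in controls. In controls these 4 lay within their spread of each other, while in phlebotomy libraries Vpreb3 lay above Sox4 and Cd79b by more than 1 SD. The lowest were Cr2, Pax5, Rag2 and Rag1, at 0.367 ± 0.114, 0.477 ± 0.106, 0.851 ± 0.143 and 0.971 ± 0.342 CPM per kb in phlebotomy libraries and 0.548 ± 0.108, 0.771 ± 0.107, 0.829 ± 0.286 and 0.831 ± 0.174 CPM per kb in controls. Transcript ends and isoforms in use may differ from the longest annotated one, which moves these values for a gene in all libraries alike.

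Other genes of the same processes showed 0 calls in edgeR over all genes. Their counts at an unadjusted p under 0.05 stand beside 9.42% of all genes lower and 7.01% higher. Of 12 further genes that serve the cutting and joining of immunoglobulin genes, 1 was lower and 1 higher at an unadjusted p under 0.05, and the median was 0.13. Polm, a polymerase of end joining, had 3.47, 5.93 and 4.11 CPM in phlebotomy 1, 2 and 4, against 7.69, 6.94 and 8.60 CPM in control 1, 2 and 4, and its relative Poll had 4.13, 3.52 and 3.54 CPM in phlebotomy libraries, against 0.789, 1.20 and 2.22 CPM in controls. The pair thus stood on opposite sides (log2 fold changes -0.78 and 1.38, edgeR adjusted p 0.202 and 0.160). Poll was low in controls, down to 0.789 CPM in control 1, so counting error in its fold change is wide. Of 19 genes of B cell receptor signalling, 2 were lower and 0 higher at an unadjusted p under 0.05 (median -0.15), a share near that of all genes. Nfatc1 had the smallest p of these, but it is also the master factor of osteoclasts (log2 fold change -0.90, edgeR adjusted p 0.149).

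Of 29 further B-lineage genes, 7 were lower and 1 higher at an unadjusted p under 0.05, beside 9.42% and 7.01% of all genes, and the median log2 fold change was -0.13. Irf4, a factor of pre-B cells and plasma cells, had 4.37, 11.7 and 7.71 CPM in phlebotomy 1, 2 and 4, against 15.0, 18.1 and 14.1 CPM in control 1, 2 and 4. Phlebotomy 1 was lowest and phlebotomy 2 nearest to the controls, with a log2 fold change of -0.997 ± 0.29 (SE, edgeR adjusted p 0.173, DESeq2 adjusted p 0.0464). Ighm, the IgM heavy chain of immature and mature B cells and of plasma cells, had 233, 983 and 264 CPM in phlebotomy libraries and 1530, 316 and 430 CPM in controls, and Igkc, the kappa light chain, had 323, 798 and 168 CPM in phlebotomy libraries and 1257, 205 and 310 CPM in controls. Each spread widely within both groups. Ighd, the IgD heavy chain of mature B cells, had 8.33, 14.01 and 12.4 CPM in phlebotomy libraries, against 20.4, 22.5 and 14.7 CPM in controls (log2 fold change -0.73 ± 0.24 SE, edgeR adjusted p 0.198). Its phlebotomy libraries lay below all controls, as did those of 11.2% of all genes.

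Genes of the niche that feeds B-cell precursors had a median of -0.13 over 12 tested, with 1 lower and 1 higher at an unadjusted p under 0.05, a share near that of all genes. Il7, the interleukin itself, had 4.07, 4.43 and 4.80 CPM in phlebotomy 1, 2 and 4, against 6.02, 5.46 and 5.11 CPM in control 1, 2 and 4 (log2 fold change -0.31 ± 0.24 SE, edgeR adjusted p 0.531). Foxc1, a factor of the reticular cells that make Cxcl12, had 43.4, 58.2 and 40.8 CPM in phlebotomy libraries, against 100, 74.6 and 65.3 CPM in controls (log2 fold change -0.75 ± 0.20 SE, edgeR adjusted p 0.160). Groups did not overlap for either gene, the only 2 of the 12 to lie lower in this way, beside 11.2% of all genes. Tslp, a cytokine that can act on B-cell precursors through Il7r, had 5.87, 1.82 and 4.74 CPM in phlebotomy libraries, against 1.68, 2.35 and 2.69 CPM in controls (log2 fold change 0.87 ± 0.39 SE, edgeR adjusted p 0.282), and phlebotomy 2 lay among the controls.

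Markers of other blood cells were summed likewise. Plasmacytoid dendritic markers, 5 of 6 tested, summed to 26.1 to 28.1 CPM in phlebotomy libraries and 27.5 to 33.5 CPM in controls, and T and NK markers, 14 of 15 tested, to 110 to 122 CPM in phlebotomy libraries and 68.1 to 115 CPM in controls. Plasma cell markers, 11 of 12 tested, summed to 667 to 854 CPM in phlebotomy libraries and 708 to 1157 CPM in controls. All 12 mature B members summed to 206, 253 and 196 CPM in phlebotomy 1, 2 and 4, against 220, 242 and 264 CPM in control 1, 2 and 4. Without Cd37 and Cd38, which other cells also make, the 10 left summed to 98.3, 134 and 105 CPM in phlebotomy 1, 2 and 4, against 136, 137 and 139 CPM in control 1, 2 and 4. Phlebotomy 2 lay inside the control range in the first sum and just below it in the second. Across the 34 members log2 fold changes ran with transcript length at a Spearman's rho of -0.19 and with GC content at -0.31, beside -0.25 and -0.23 over 18822 genes, as a description of genes that share libraries. With that trend removed the stage medians were -0.20, -0.34 and -0.32.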

How the data were processed

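The files the authors deposited are raw counts per gene, the same counts after filtering, and a table of scaled signal that, per the file's name, is CPM with TMM; each of its columns was found to be the filtered counts times 1 constant. Per the labels' protocols, total RNA of osteocyte-enriched bone gave Nextera XT libraries, read as 126 bp pairs on a HiSeq1500. Of tools and builds, the submitters' processing notes list mm10, GRCm38.p3, limma, edgeR, DESeq2 and STAR (2.5.2a and 2.7.3a) with no role for each; the counting program is not given in the sources used here. Left out were 19 rows without a mouse gene ID, at 0.00278% to 0.0284% of a library's counts.

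Counts were filtered with filterByExpr (minimum count 10), which left 18838 genes, scaled with TMM and tested with the robust quasi-likelihood test of edgeR 4.0.16 (R 4.3.3), without covariates, at a Benjamini-Hochberg adjusted p of 0.05. SE was approximated from the F statistic. Levels, also per kilobase, came from the counts and the same factors in place of the deposited scaled values first planned, since the authors' factors (0.883 to 1.145) differ from these (0.906 to 1.072); log2 levels used a pseudocount of 0.5 CPM. DESeq2 1.42.0 and limma 3.58.1 (voom) were alternatives. On simulated counts of this design 44% of 100 genes changed 2-fold and 83% of 100 changed 4-fold were recovered among 18355 genes. There were 14 false calls of 141, a larger share than the threshold of 0.05. Genes were simulated independently, with no shift shared across a library, so recovery in the real libraries is not measured by this. Coordinates, transcript length and GC content came from GENCODE M21 (GRCm38). No pair of libraries agreed within sampling noise. Members, stages and lists were chosen with earlier results of these data known. All members are accounted for, and of each other list up to 3 genes by smallest p could be named; Ighm, Ighd, Igkc and Vpreb1b were looked up outside that rule. Alternatives were the other tools, other scaling, other filters, a replicate block, removal of a length and GC trend (loess, span 0.5), fewer members, and leaving out each library; the authors' scaling was added after seeing the data. Figures used matplotlib 3.10.9.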

Additional observations from a re-analysis of the deposited data

Results flagged for a closer look

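The 19 rows of the count table without a mouse gene ID, among them Neo and rows whose names start with tg, entered no comparison. They held 0.0284% of counts in phlebotomy 2, against 0.00337% to 0.00361% in controls and 0.00278% and 0.00297% in phlebotomy 1 and 4. This is the library in which the members lay nearest to the controls; the part of this signal in those values was not tested.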

How the results depend on the processing

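The count of genes called, 3 with all libraries, was 378 in DESeq2, 0 in limma-voom and 20 over the genes the authors kept. It was 577 without a low-count filter, and ran from 0 (without phlebotomy 1) to 963 (without phlebotomy 2) with a library left out. The count of members called, 0, was 3 in DESeq2. It was 4 with no low-count filter (Spib beside the 3 of DESeq2), where 577 of 46504 genes were called. With a library left out it was 0 to 5, the 5 without phlebotomy 2. With a library left out the stage medians ran from -0.33 to -0.17 (pro-B and pre-B), -0.51 to -0.23 (lineage-wide) and -0.49 to -0.19 (mature B), and the early minus mature difference from -0.0018 to 0.17. Sox4, Il7r, Foxo1, Cd24a, Cd37 and Cd38 are 6 members set aside because other cells also make them. Without them the pro-B and pre-B median was -0.038 and the difference 0.35. Whether the remaining members come from B cells alone was not tested. The causes were not tested.

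Signs of members near 0 turned. With the authors' scaling, which puts the median of all genes at -0.088, Rag2, Cd72, Blk and Ikzf3 had log2 fold changes of -0.035, -0.020, -0.027 and -0.011, and over their filtered genes -0.036, -0.020, -0.027 and -0.011. limma-voom gave Vpreb3 0.024, Blk -0.0020 and Ikzf3 -0.052. With the trend removed Rag2 had -0.11 and Ms4a1 -0.087, and with no low-count filter Rag2 had -0.0075. With a library left out the ranges were -0.053 to 0.17 (Ms4a1), -0.25 to 0.17 (Vpreb3), -0.070 to 0.49 (Rag1), -0.24 to 0.24 (Rag2), -0.24 to 0.11 (Dntt), -0.29 to 0.069 (Fcrla), -0.28 to 0.18 (Blk), -0.39 to 0.33 (Ikzf3) and -0.21 to 0.37 (Tnfrsf13c).

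Same-numbered libraries did not deviate together (correlations -0.110, -0.108 and -0.062 over 18838 genes), and differently numbered ones had -0.024 to 0.106. The labels do not say whether the numbers pair libraries, and deviations from means of 3 libraries cannot settle it. With a replicate block 3 genes and 0 members were called, the stage medians were -0.21, -0.31 and -0.40, and Vpreb3 and Ikzf3 had 0.038 and -0.024. Among members, counting error is widest for Cr2 and Rag2, at 28 to 62 and 26 to 58 counts a library.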
